A study of Mus musculus with 8 samples.

Results

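The complement genes described here are 9 of the 41128 gene symbols measured in mouse ileum, taken by symbol: the initiator subunits C1qa and C1qb, the protease C2, the thioester proteins C4b and C3, the alternative pathway protease Cfb, and the inhibitors Cfi, Serping1 and Cd55. All 9 were found. RNA came from whole-tissue sections of the ileum of FVB mice, taken under 6 cm from the ileocecal valve, with 1 library per mouse. Groups were Cftr -/- mice (KO; the Cftrtm1Cam null allele) and Cftr N/N littermates (WT), 3 of each without antibiotics (couples 1 and 3 labelled female, couple 2 male), plus 1 KO and 1 WT mouse from a couple labelled female whose drinking water held metronidazole at 0.5 g/L together with ciprofloxacin at 0.3 g/L. All mice had been raised on a low fiber diet with an osmotic laxative, which was stopped over 4 days before sampling. The null allele is carried in all tissues, and a whole section holds epithelium, lymphoid tissue, stroma and muscle. No age is given in the sources used here.

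Complement is a cascade of plasma and tissue proteins. C1q binds antibody or microbial surfaces and activates proteases that cleave C4 and C2, the lectin pathway reaches the same step through mannose-binding lectins, and the alternative pathway amplifies C3 cleavage through factor B. Fragments of C3 and C4 attach to surfaces by a thioester. C1 inhibitor (Serping1), factor I (Cfi) and decay-accelerating factor (Cd55) hold the cascade in check. Hepatocytes make most plasma complement, while macrophages make C1q, and epithelial and stromal cells can make several of the other components.

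Values are per gene length and taken as RPKM (read density scaled to gene length and library size). The authors had normalized them in 3 sets (couples 1 and 2, couple 3, the antibiotic couple), and their read depth is unknown, so no counting interval was computed. Cftr, as a check of the labels, ranged from 2.65 to 4.94 among KO libraries and from 9.94 to 13.8 among WT libraries (untreated log2 change -1.50, SE 0.17, limma adjusted p = 0.007). Epithelial markers were high in all 8 libraries, with a summed value of 5200 to 8350 over 11 genes. Of these, Krt8, a keratin, ranged from 1100 to 2230 and Lgals4, a galectin, from 796 to 1500. Libraries differed in tissue other than gut epithelium. Albumin (Alb), the main hepatocyte transcript, was 0.15, 0.163 and 0.0891 in the WT libraries of couples 1, 2 and 3 and 110, 0.0419 and 10.6 in the KO libraries. The antibiotic couple had 397 (WT) and 357 (KO). The KO libraries of couples 1 and 3 and both antibiotic libraries therefore stood apart from the other 4 in this gene. The summed value of 24 hepatocyte genes was 1.67 to 10.6 in untreated WT and 223, 4.44 and 29.3 in KO of couples 1, 2 and 3. With antibiotics the sums were 527 (WT) and 469 (KO). B cell and follicle markers (7 genes) also differed, with sums of 44, 56.3 and 6.48 in WT and 55.3, 9.38 and 123 in KO of couples 1, 2 and 3, and of 2.46 in WT and 90.1 in KO with antibiotics.

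Members lie on 5 chromosomes (GRCm38). C2 (ENSMUSG00000024371, 34862604 to 34898265), Cfb (ENSMUSG00000090231, 34856374 to 34862518) and C4b (ENSMUSG00000073418, 34728380 to 34743882) lie on the minus strand of chromosome 17, in the class III part of the MHC. C2 and Cfb are neighbours separated by 85 bases, and C4b lies 112491 bases from Cfb, with C4a between them. C3 (ENSMUSG00000024164, 57203970 to 57228136, minus strand) is on the same chromosome. C1qa (ENSMUSG00000036887, 136895917 to 136898803) and C1qb (ENSMUSG00000036905, 136880129 to 136886187) lie on the minus strand of chromosome 4. Serping1 is on chromosome 2 (84765387 to 84775444, minus strand), Cd55 on chromosome 1 (130439027 to 130462744, minus strand) and Cfi on chromosome 3 (129835884 to 129875332, plus strand).

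Some member transcripts share sequence with other genes, which bears on how their reads could be assigned. Of all 50-base windows of the longest coding transcript, 35.2% of C4b occur also in its paralog C4a, 13.3% of Cd55 in Cd55b, and 58% of C2 and 81.4% of Cfb in Gm20547, a gene model that spans both. For C3, Cfi, Serping1, C1qa and C1qb the share was 0. The sources used here do not say how shared reads were counted. The genes that share these windows were listed low: C4a at 0 to 0.409, Cd55b (as Daf2) at 0.321 to 1.25 and Gm20547 at 0 to 0.846. Aligned transcripts of C4b and C4a were 96.1% identical over 5367 bases. The coding stretch of 60 bases with the most differences (13, in capitals) lies in exon 21 of C4b, chr17:34735430-34735489, minus strand, GRCm38, and is shown because only reads over such positions separate the paralogs.
C4b: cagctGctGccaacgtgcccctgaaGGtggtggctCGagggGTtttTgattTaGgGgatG
C4a: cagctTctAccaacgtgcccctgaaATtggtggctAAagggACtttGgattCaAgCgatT

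Upstream sequences of RefSeq (GRCm38.p6) were at hand for 3 of the 9 members, C3, Cd55 and C1qb. The 120 bases before the annotated start of C3 (chr17:57228137-57228256, minus strand) and of Alb (chr5:90460750-90460869, plus strand) are shown because Alb is the liver gene against which C3 is set here, with the core TTGCNNAA of C/EBP factors in capitals. For C1qb (chr4:136886201-136886320, minus strand) capitals mark GAGGAA, the core bound by the myeloid factor PU.1.
C3: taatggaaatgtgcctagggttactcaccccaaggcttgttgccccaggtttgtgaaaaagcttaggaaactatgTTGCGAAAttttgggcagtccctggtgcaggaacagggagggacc
Alb: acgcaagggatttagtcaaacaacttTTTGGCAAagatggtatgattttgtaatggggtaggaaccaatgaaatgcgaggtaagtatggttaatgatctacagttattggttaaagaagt
C1qb: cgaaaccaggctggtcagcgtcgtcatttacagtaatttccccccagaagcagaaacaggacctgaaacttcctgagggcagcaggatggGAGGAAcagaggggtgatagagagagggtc
Searched on both strands of the 250 bases before the start, TTGCNNAA was found in C3 and Alb, on the minus strand in Alb, and in 9.56% of 32851 promoters. GAGGAA was found in C1qb and in 23.3%. Exact letters of the interferon response element core (2.98% of promoters), the gamma-activated site TTCNNNGAA (7.02%) and the NF-kB core (1.41%) were not found. The same held for TATAAA (12.4%) and the HNF1 core (0.371%), in these windows of C3, Cd55, C1qb and Alb. Near matches were not counted. The Alb sequence shown holds a stretch that differs from the searched HNF1 letters only in its last base. An HNF1 site in Alb is therefore not excluded. The Alb window ended at the RefSeq start (90460870), and bases from there to the GENCODE start (90460897) were not searched. All matches here are letters only and no measure of binding.

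In untreated ileum, 0 of the 8 members that could be tested passed the threshold between KO and WT (limma, adjusted p under 0.05), where 2.16% of 11717 tested genes were called. At an unadjusted p under 0.05 there was 1 member, C2, and 16% of all tested genes. The couples are litters, and with the couple as a block C2 passed as higher and Cfb as lower in KO, 2 of 8 members where 18.3% of tested genes were called (8.4% higher and 9.91% lower). That share is near the background. The median log2 change of the 8 was 0.29, against -0.01 over all tested genes, with 6 above 0 and 2 (Cfb and Serping1) below. Cfi was below the filter, which asked for 3 or more libraries at 1 or above, and was not tested.

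**Figure D1:**
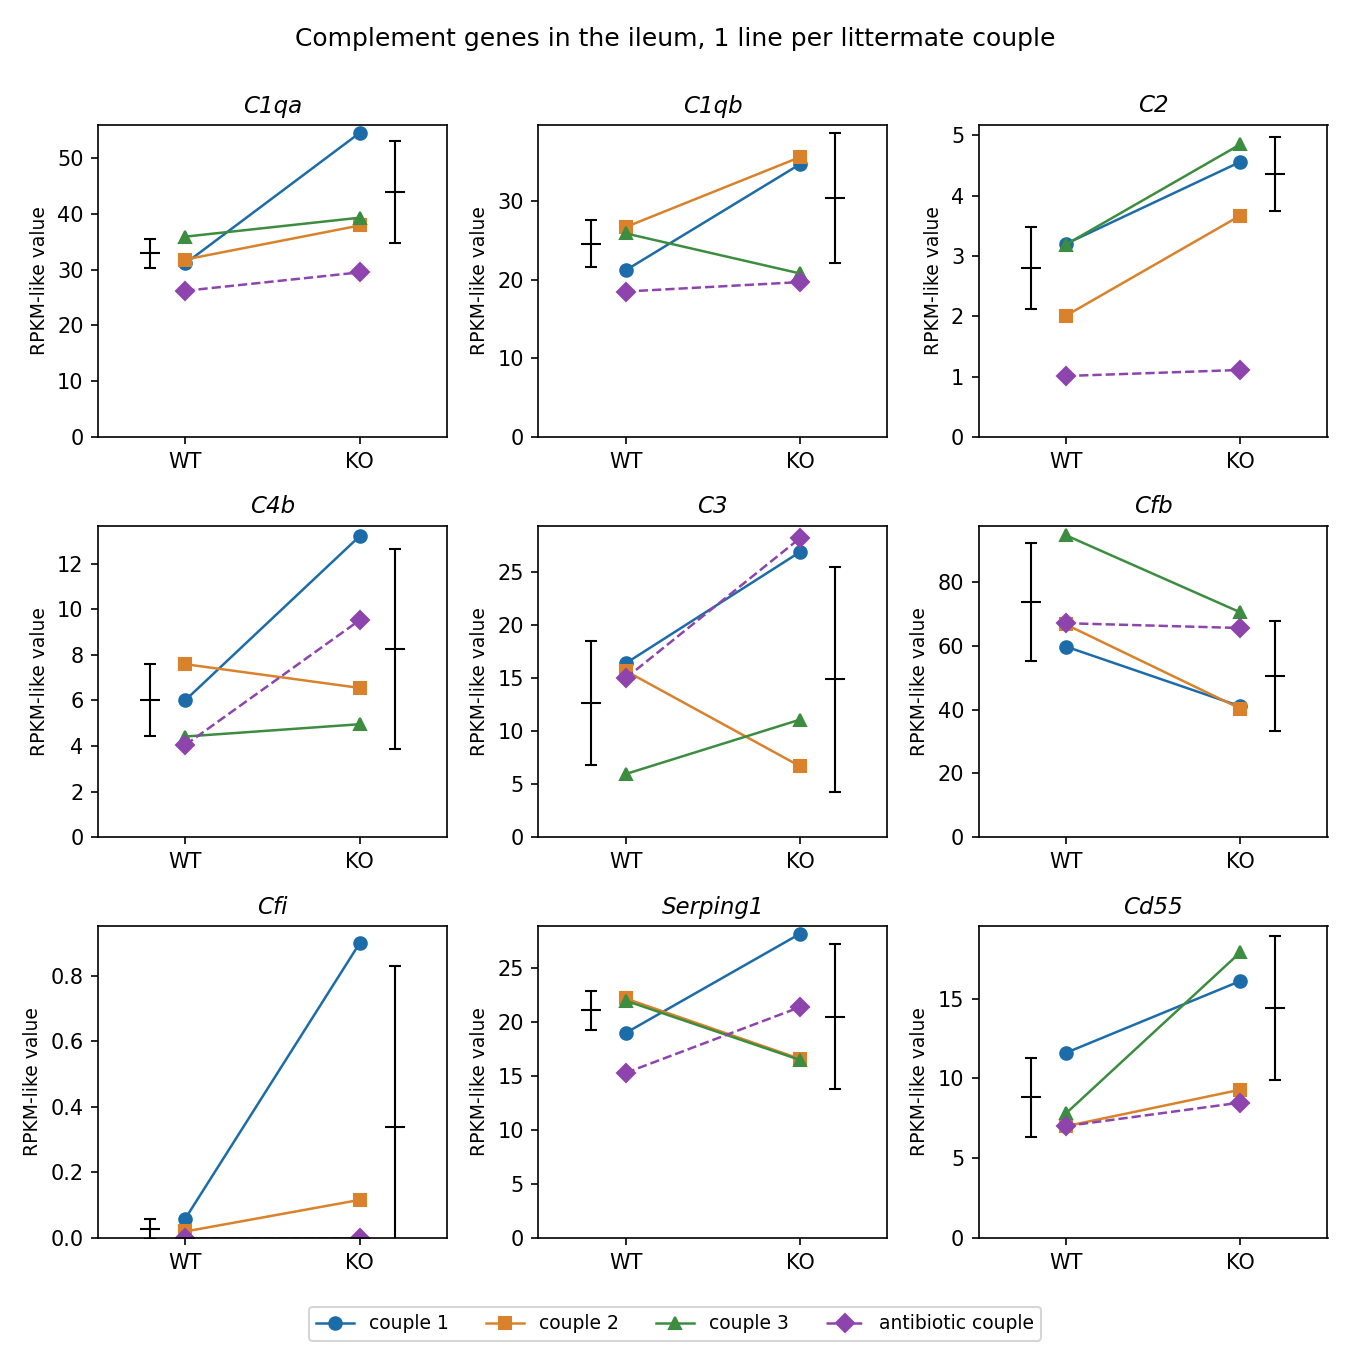
Value of each of the 9 genes (y axis, RPKM-like value, from 0) in WT and KO libraries, with a line per littermate couple, dashed for antibiotics, and black bars for the mean and SD of the 3 untreated mice. C2 was higher and Cfb lower in KO in each untreated couple, while C3, C4b, Serping1 and C1qb went in both directions. For Cfi, couple 3 lies under the antibiotic couple at 0.

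The recognition subunits C1qa and C1qb form C1q together with C1qc. C1qa was 31.1, 31.8 and 35.9 in the WT libraries of couples 1, 2 and 3 and 54.5, 37.9 and 39.3 in the KO libraries. Each KO value was above each WT value, as for 10.4% of tested genes, with the highest value in KO of couple 1. A log2 change of 0.39 (SE 0.19) did not pass (adjusted p = 0.388, and 0.129 with the couple block, both limma). C1qb was 21.2, 26.7 and 25.9 in WT, against 34.7, 35.6 and 20.8 in KO. It was higher in KO of couples 1 and 2 and lower in KO of couple 3, so the groups overlapped (log2 change 0.26, SE 0.24, limma adjusted p = 0.659). C1qc followed C1qb, with within-couple log2 differences of 0.54, 0.16 and -0.34 against 0.68, 0.40 and -0.30. Macrophage markers had a median within-couple log2 difference over 9 tested genes of 0.49, 0.14 and -0.36 in couples 1, 2 and 3, the same order as for C1qb. Of the 9, 1 passed without the block, Cd14, as higher in KO (limma adjusted p = 0.00477), where 2.16% of all tested genes were called. With the block, where 18.3% were called, 3 passed as higher (Cd14, Lyz2 and Tyrobp, limma adjusted p = 0.0049, 0.0383 and 0.0191) and 1, Mertk, as lower (0.012). Cd14 and Tyrobp were named after their values were seen. Lyz2, a lysozyme of myeloid cells, was 80.1, 62.1 and 48.2 in WT, against 185, 94.2 and 174 in KO, and Mertk, a receptor for dying cells, was 29, 33.8 and 30.4 in WT, against 14, 18.3 and 17.8 in KO. The sum of the 11 macrophage markers in the table was 118 to 150 in WT, against 174 to 258 in KO. Lyz2 carried that difference, and the sums without it were 70, 82.7 and 70.2 in WT, against 73.6, 80.1 and 60.1 in KO of couples 1, 2 and 3. Mertk, lower in KO, had the highest mean of the remaining macrophage markers, while Cd14 and Tyrobp were higher in KO. The sums without Lyz2 therefore do not show that the other macrophage markers were level. The part of these cells in the C1q values was not tested. In bulk tissue, fewer cells of a type and less RNA per cell cannot be told apart.

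The genes C2 and Cfb encode the homologous proteases of the classical and lectin pathways and of the alternative pathway. C2 was 3.20, 2.01 and 3.19 in WT of couples 1, 2 and 3, against 4.56, 3.67 and 4.85 in KO. All 3 KO values lay above all 3 WT values, as for 10.4% of tested genes. The log2 change was 0.51 (SE 0.19, limma adjusted p = 0.242). With the couple block the same change had an SE of 0.09 and an adjusted p of 0.0309. Cfb, the member with the highest value in WT, went the other way. It was 59.7, 66.6 and 94.5 in WT, against 41, 40.3 and 70.4 in KO. Each KO mouse was below its littermate by a ratio of 0.605 to 0.745, but KO of couple 3 was above WT of couples 1 and 2, so the groups overlapped. The log2 change was -0.55 (SE 0.28, limma adjusted p = 0.399, and 0.0256 with the block, SE 0.09). Over all tested genes 32.5% were lower and 28.1% higher in KO in all 3 couples. Both calls were lost when any couple was left out of the blocked fit (limma adjusted p = 0.0706 to 0.109 for C2 and 0.0686 to 0.0865 for Cfb). Beside Cfb, epithelial markers had median within-couple log2 differences of 0.18, -0.12 and 0.00 over 11 genes. With the block 1 of them passed, Vil1 (villin, of the brush border, named after its values were seen), as lower in KO (limma adjusted p = 0.0331, and 0.421 without the block). The blocked fit called 9.91% of all tested genes as lower and 18.3% in either direction. Vil1 was 620, 710 and 911 in WT, against 467, 477 and 618 in KO, with log2 differences of -0.41, -0.57 and -0.56. The part of epithelial content in the Cfb values was not tested.

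As a ratio, which was chosen after the values were seen, C2 was 5.36, 3.02 and 3.38 per 100 of Cfb in WT and 11.1, 9.11 and 6.89 in KO. Means were 3.92 ± 1.26 (WT) and 9.04 ± 2.12 (KO; SD, n = 3 each). The ratio was built from a pair of genes already seen to go opposite ways, so it is a description with no test. Gm20547, which overlaps both genes, was listed at 0.846 (WT) and 0.498 (KO) in couple 1, at 0.0387 and 0.0435 in couple 2 and at 0 in couple 3.

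**Figure D2:**
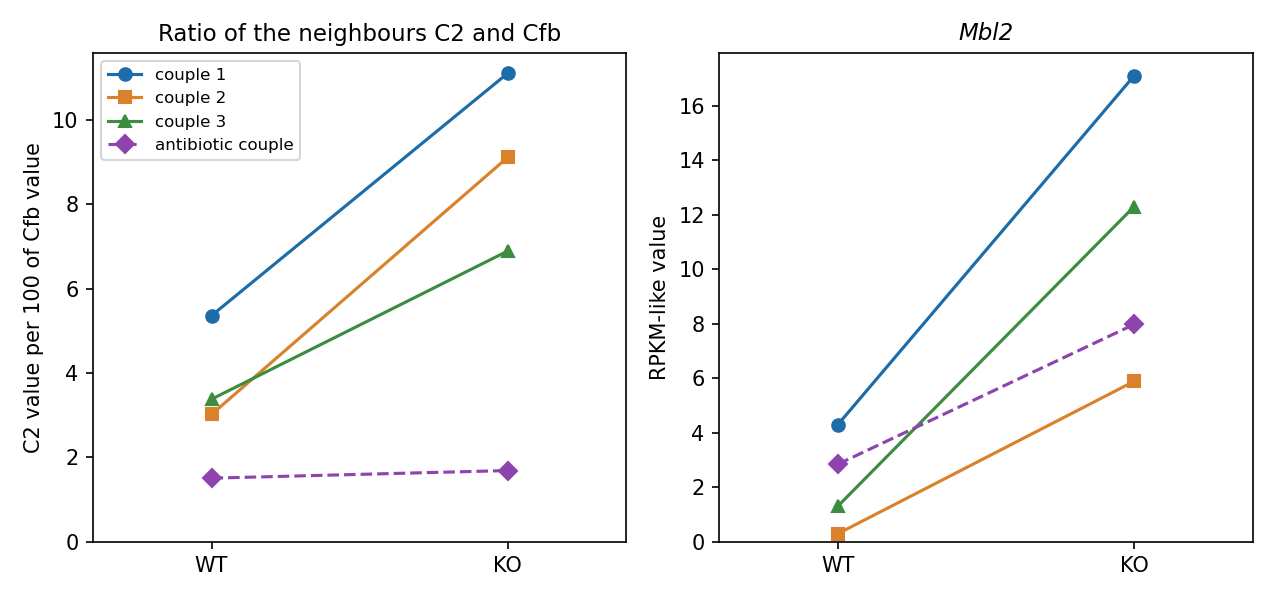
Left, the C2 value per 100 of the Cfb value, and right, the Mbl2 value (RPKM-like), in WT and KO libraries, both y axes from 0, with a line per couple and a dashed line for antibiotics. The ratio lies at 3.02 to 5.36 in untreated WT and 6.89 to 11.1 in untreated KO, and at 1.51 and 1.69 with antibiotics.

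C3, the component on which all pathways converge, showed no common direction. It was 16.4, 15.7 and 5.97 in WT of couples 1, 2 and 3, against 26.9, 6.71 and 11.1 in KO. KO of couple 1 was highest and WT of couple 3 lowest, and KO of couple 2 was at 0.427 of its littermate. The log2 change was 0.12 (SE 0.52, limma adjusted p = 0.946, and 0.848 with the block). Its sign depended on single libraries, since it became -0.39 when KO of couple 1 was left out and -0.31 when WT of couple 3 was. With log2 Alb as a covariate the change was -0.79 (limma adjusted p = 0.608), and with the mean of B cell and follicle markers, an alternative added after seeing the data, it was -0.065. Alb was 0.0891 to 0.163 in untreated WT and varied almost only among the KO libraries. A fit with Alb as a covariate therefore does not separate liver RNA from genotype.

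C3 went in the direction of Alb in 3 of 4 couples and in that of Cd79a, a B cell receptor chain, in 4 of 4. C4b had the same counts. The direction of Cd79a was shared in 3 of 4 couples by C2, Serping1, Cd55 and C1qa. Cd79a was higher in KO in 3 of 4 couples, so any gene higher in KO in all 4, as C2, Cd55 and C1qa were, gets that count. C1qb shared the direction of Cd79a in 2 couples, and Cfb and Cfi in 1. Cfi was listed at 0 in both mice of couple 3 and of the antibiotic couple, so it had no direction there. In couple 2 Alb was near 0 in both mice, at 0.163 in WT and 0.0419 in KO. Cd79a was 12, 20.5 and 2.4 in WT, against 17.6, 4.61 and 39.8 in KO of couples 1, 2 and 3, and 0.36 in WT and 31.2 in KO with antibiotics. Cxcl13, the chemokine of B cell follicles, was 12.5, 9.75 and 2.09 in WT, against 14.3, 1.27 and 28.7 in KO. In couple 1 the log2 difference was 0.68 for C3, 6.60 for Alb and 0.51 for Cd79a. In couple 2 it was -1.12, -0.16 and -1.94, and in couple 3 it was 0.79, 3.42 and 3.59. The antibiotic couple had 0.87, -0.15 and 4.57. What part liver or follicle RNA had in the C3 values was not tested.

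**Figure D3:**
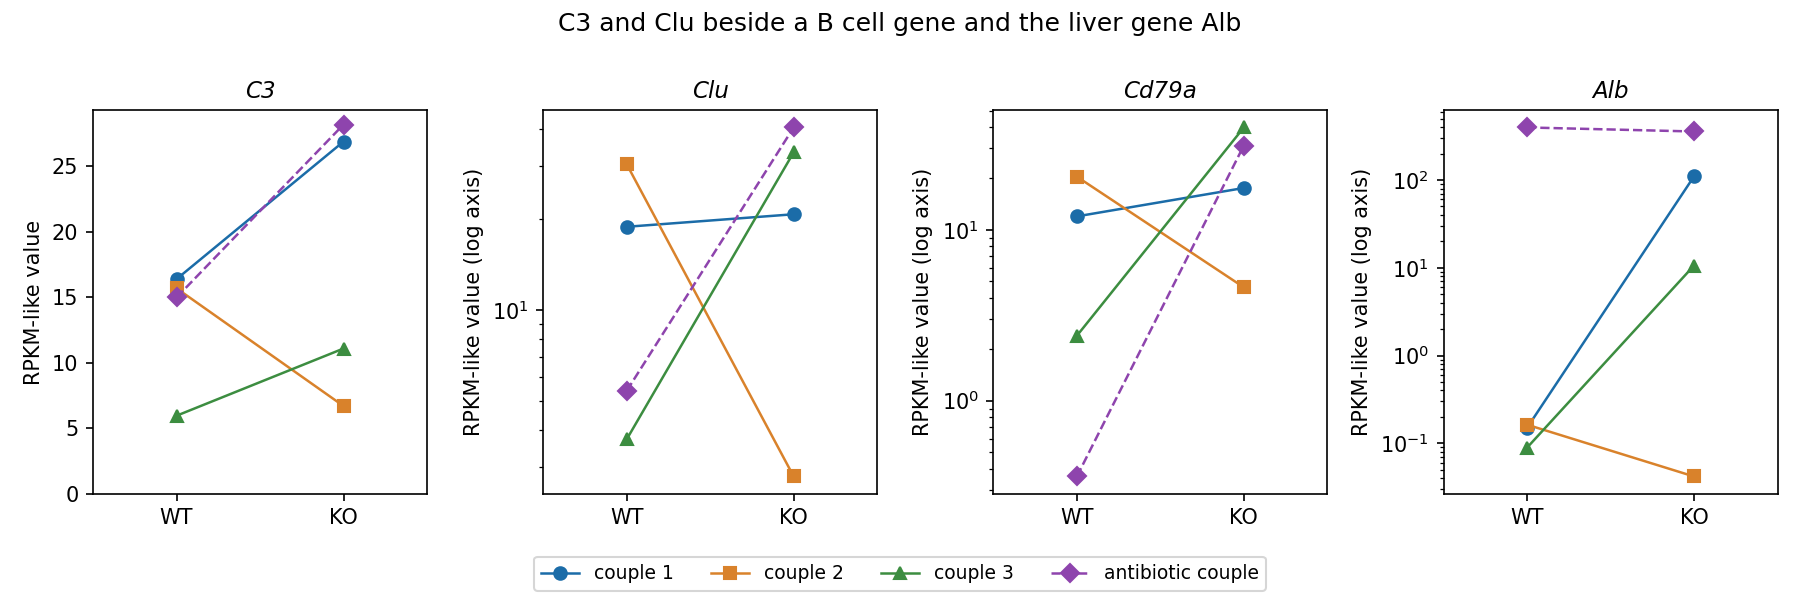
C3 (linear axis from 0) beside Clu, Cd79a and Alb (log axes) in WT and KO libraries, all as RPKM-like values, with a line per couple and a dashed line for antibiotics. C3, Clu and Cd79a are lower in KO in couple 2 and higher in KO in the other 3 couples, while Alb is high in KO of couple 1, KO of couple 3 and both antibiotic libraries.

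Among 5621 other genes at or above the median level, those whose 4 within-couple log2 differences lay nearest to C3 were Msn, Ptpn6, Arhgef1, Swap70 and Ighv1-50 (Euclidean distances 0.67 to 0.99). Msn, the membrane to cytoskeleton linker moesin, had differences of 0.48, -0.67 and 0.75 in couples 1, 2 and 3 and 1.32 with antibiotics. Alb lay at a distance of 6.62 from C3 and at 6.58 to 8.12 from all 9 members. The large differences of Alb itself (6.60 in couple 1 and 3.42 in couple 3) enter each of these distances. They therefore do not show whether C3 follows Alb. The genes nearest to Cfb were closer (0.089 to 0.14): Inadl, Tmem219, Gucy2c, Cdhr5 and Lamp1. Gucy2c, the guanylate cyclase C receptor of enterocytes, had differences of -0.56, -0.63, -0.49 and -0.10 where Cfb had -0.53, -0.71, -0.42 and -0.03. Nearest to C1qa were Aars, Plp2, U2af1, Atic and Atf4 (0.15 to 0.26). These distances rest on 4 couples and are descriptions.

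C4b, the other thioester protein, was 6.01, 7.59 and 4.42 in WT of couples 1, 2 and 3, against 13.2, 6.55 and 4.96 in KO. KO of couple 1 stood above the other 5 libraries, which overlapped. Its log2 change was 0.32 (SE 0.33, limma adjusted p = 0.698), and -0.037 without KO of couple 1 and -0.12 with Alb as a covariate. The limit given for C3 holds for the Alb covariate here too. Serping1, the inhibitor of C1 proteases, was 19, 22.2 and 22 in WT, against 28.2, 16.6 and 16.5 in KO. It was higher in KO of couple 1 and lower in KO of couples 2 and 3 (log2 change -0.08, SE 0.23, limma adjusted p = 0.912), and the change was 0.041 without KO of couple 2 and 0.045 without KO of couple 3. Fibroblast markers had median within-couple log2 differences of 0.17, -0.82 and -0.75 over 10 genes in couples 1, 2 and 3, with summed values of 174 to 194 in WT and 197, 111 and 123 in KO. Serping1 had 0.55, -0.39 and -0.39. None of the 10 passed without the block, where 2.16% of all tested genes were called. With it 1, Fbln1, a matrix protein named after its values were seen, passed as lower in KO (log2 change -1.23, limma adjusted p = 0.00975). Over all tested genes the blocked fit called 9.91% as lower and 18.3% in either direction. Of these markers Dcn, a matrix proteoglycan, was 52.2, 37.4 and 54.5 in WT, against 58.9, 28.7 and 33.6 in KO, and Vim, a filament of mesenchymal cells, was 29.7, 37.4 and 38 in WT, against 47.3, 29.6 and 36.3 in KO. The part of these cells in the C4b and Serping1 values was not tested.

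Cd55, the membrane factor that dissolves convertases, was 11.6, 7 and 7.8 in WT, against 16.1, 9.29 and 17.9 in KO of couples 1, 2 and 3. Each KO mouse was above its littermate by a ratio of 1.33 to 2.29, though KO of couple 2 was below WT of couple 1, so the groups overlapped. For Cd55 the log2 change was 0.63 (SE 0.28, limma adjusted p = 0.327, and 0.0626 with the block, SE 0.17), so Cd55 passed in neither fit. Cfi, the protease that inactivates C3b and C4b, was listed at 0.0589 in WT and 0.899 in KO of couple 1, at 0.0196 and 0.116 in couple 2, and at 0 in the other 4 libraries. Its highest value was in KO of couple 1, the untreated library with the highest Alb, but in the antibiotic libraries, where Alb was higher still, Cfi was listed at 0. In each antibiotic library 11 of the 24 hepatocyte genes were also listed at 0, among them Ahsg, Fga, Fgb and Fgg. In KO of couple 1, 1 of the 24 was at 0, and Ahsg was 17. Whether a 0 there means absence cannot be told with read depth unknown. A liver source of the Cfi values was not tested. Serpina1a, Serpina1b and Serpina1c, serum protease inhibitor genes, were 19.8, 27.5 and 36.1 in WT and 18.7, 25.6 and 33.3 in KO of the antibiotic couple, and 5.44, 10.7 and 8.23 in KO of couple 1.

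**Figure D4:**
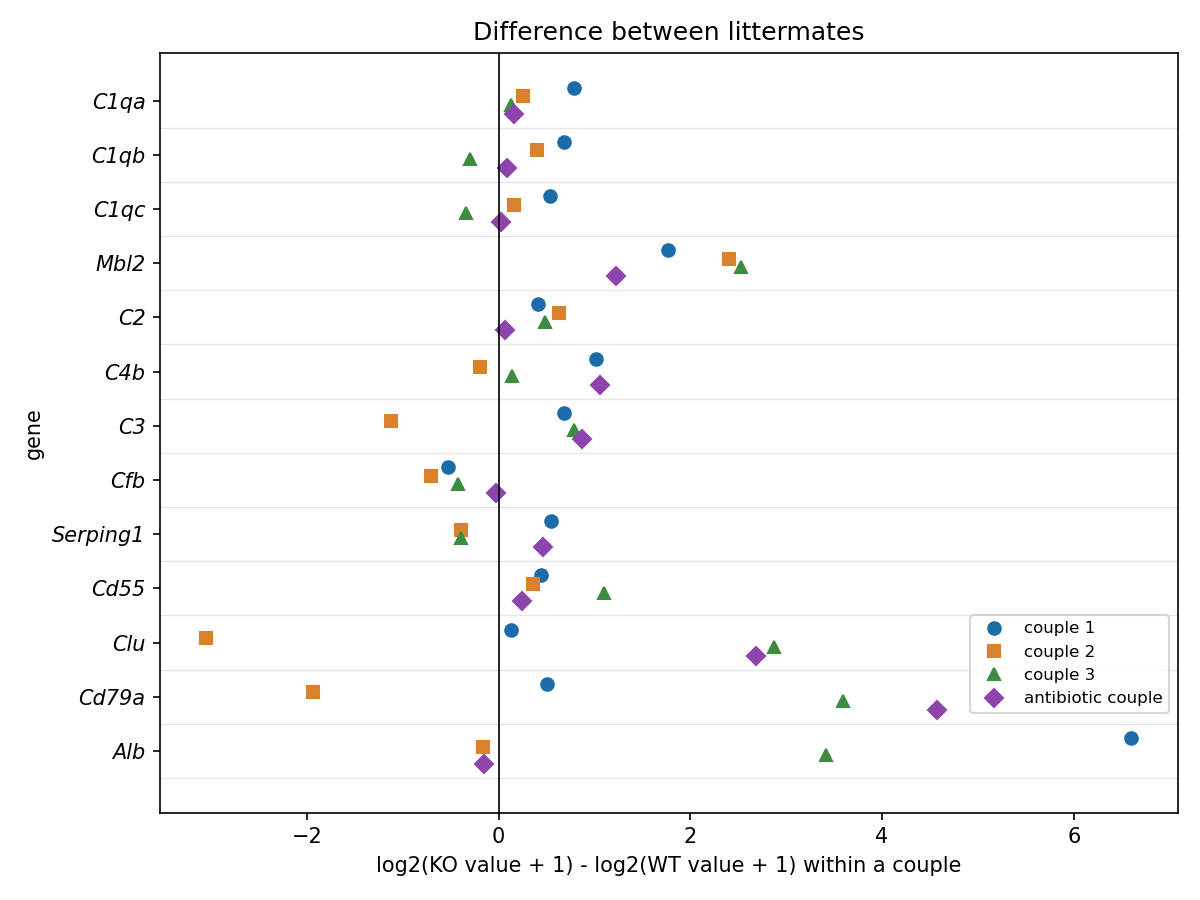
Difference between littermates, as log2(KO value + 1) minus log2(WT value + 1) (x axis), for 8 of the members and for C1qc, Mbl2, Clu, Cd79a and Alb (y axis), with a symbol per couple. C2, Cd55, C1qa and Mbl2 lie right of 0 and Cfb left of 0 in all 4 couples, and couple 2 lies left of 0 for C3, Clu and Cd79a.

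Of 44 other complement genes in the table, 19 could be tested. Without the block 0 of 19 passed, where 2.16% of all tested genes were called. With it 1, Mbl2, passed as higher in KO (limma), where 8.4% of tested genes were called as higher and 18.3% in either direction. The median log2 change was 0.08 over the 19, against -0.01 over all tested genes. Mbl2 encodes a mannose-binding lectin that starts the lectin pathway. It was 4.3, 0.3 and 1.31 in WT of couples 1, 2 and 3, against 17.1, 5.89 and 12.3 in KO. All 3 KO values were above all 3 WT values, as for 10.4% of tested genes. The change of Mbl2 was 2.23 on the log2 scale (SE 0.54, limma adjusted p = 0.0946, and 0.00835 with the block, SE 0.17), and with the block it passed whichever couple was left out (limma adjusted p = 0.0123 to 0.0318). With log2 Alb as a covariate and no block it was 1.55 (limma adjusted p = 0.418). Untreated Alb varied almost only among KO libraries, so that fit does not separate liver RNA from genotype. Of 3 tested hepatocyte markers 1 passed with the block, Tat (tyrosine aminotransferase, named after its values were seen), as higher in KO (limma adjusted p = 0.0319). Tat was 0.00142, 0.0755 and 0 in WT, against 6.51, 1.18 and 4.13 in KO, and its groups did not overlap. Tat met the filter only through the KO libraries, where it was high, so its call and lack of overlap are descriptions and no support. The other tested hepatocyte markers, Serpina1b and Cyp2e1, were higher in KO of couples 1 and 3. In couple 2 they were lower in KO (log2 differences -1.34 and -0.74). The sum of the 24 hepatocyte genes in couple 2 was 10.6 in WT and 4.44 in KO. With antibiotics Alb was 397 in WT and 357 in KO, and Mbl2 was 2.85 and 7.98. The part of liver RNA in the Mbl2 values was not tested. Among other initiators the protease C1s1 was 9.92, 6.64 and 6.64 in WT, against 16.6, 6.29 and 6.31 in KO, highest in KO of couple 1 like C4b.

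In the alternative pathway, Cfd (adipsin, which cleaves factor B) was 11.3, 25.3 and 10.2 in WT, against 8.38, 5.32 and 18.6 in KO (log2 change -0.55, SE 0.47, limma adjusted p = 0.634). Cfp, the stabilizer properdin, was 3.85, 6.54 and 2.59 in WT, against 4.77, 4.99 and 5.33 in KO (0.25, SE 0.26). Both overlapped between genotypes. Among regulators, Cr1l (Crry), the rodent membrane regulator, was 27.4, 20.9 and 30.4 in WT, against 31.2, 25.7 and 36.9 in KO, higher in each KO mouse than in its littermate (log2 change 0.25, SE 0.21, limma adjusted p = 0.633, and 0.075 with the block). Clu, a secreted chaperone and inhibitor of the terminal complex, was 18.9, 30.5 and 3.72 in WT, against 20.8, 2.8 and 33.4 in KO. Its differences of 0.13, -3.05 and 2.87 had the signs of Cd79a and of C3 in each couple, and its fitted change was -0.02 (SE 0.94). The receptor chain Itgb2 was 5.56, 6.45 and 4.86 in WT, against 9.86, 7.14 and 7.87 in KO (0.48, SE 0.17, limma adjusted p = 0.223, and 0.0731 with the block).

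With antibiotics, C2 stood out by its level. It was 1.01 in WT and 1.11 in KO, below all untreated libraries of the same genotype (2.01 to 3.20 in WT, 3.67 to 4.85 in KO), at 0.361 and 0.254 of the untreated means. Libraries of the antibiotic couple had a lower median over the 9729 genes at 1 or above in all 8 libraries (7.49 in WT and 7.43 in KO, against 8.1 to 8.67). After division by these medians C2 was still at 0.409 and 0.287. C1qa, at 26.2 in WT and 29.5 in KO, was also below its untreated ranges, at 0.796 and 0.672 of the means and at 0.903 and 0.762 after division. C1qb, at 18.5 and 19.7, was below its ranges as deposited but within them after division. C3 was 15 in WT, within its untreated range but above it after division, and 28.2 in KO, above it on both scales. Cfb, at 67 and 65.5, lay within both ranges as deposited, with KO above its range after division. C4b was 4.05 in WT, below the untreated range (within it after division), and 9.52 in KO, within it, and Serping1 was 15.3, below, and 21.4, within. Cd55 was 7.01 and 8.48, within the WT range and below the KO range, and within both after division. Levels were not tested against the untreated mice, since treatment coincides with 1 couple and its own normalization, and these cannot be told apart.

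Within the antibiotic couple the KO over WT ratios were 1.1 for C2, 0.978 for Cfb, 1.88 for C3, 2.35 for C4b, 1.4 for Serping1, 1.21 for Cd55, 1.13 for C1qa and 1.07 for C1qb. The question of whether the genotype difference itself differed with antibiotics was addressed by an interaction term, with the couple as a block. Among 8 members 0 passed, and percent called over 11520 tested genes was 0 (limma). At an unadjusted p under 0.05 there was 1 member, Cfb, and 16.1% of all genes, and the fit without the block called 0 members as well. The interaction was 0.52 for Cfb (SE 0.18, limma adjusted p = 0.276) and -0.44 for C2 (SE 0.19, limma adjusted p = 0.344). C3 had 0.75 (SE 0.81) and C4b 0.74 (SE 0.49). Mbl2 was 2.85 in WT and 7.98 in KO with antibiotics (interaction -1.01, SE 0.34, limma adjusted p = 0.274). Only 1 couple had antibiotics, so the spread in this test comes from the untreated couples.

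In untreated WT ileum the order of the mean values, per gene length, was Cfb (73.6 ± 18.4), C1qa (32.9 ± 2.59), C1qb (24.6 ± 2.97), Serping1 (21.1 ± 1.79), C3 (12.7 ± 5.83), Cd55 (8.81 ± 2.48), C4b (6.01 ± 1.58), C2 (2.8 ± 0.683) and Cfi (0.0262 ± 0.03; SD, n = 3 each). The libraries of C1qb and Serping1, of C3 and Cd55, and of Cd55 and C4b overlapped, while the other neighbours did not. In KO the order of the means was the same, but Cfb (50.5 ± 17.2) overlapped C1qa (43.9 ± 9.17, SD, n = 3 each), and each gene from C1qb to Cd55 overlapped the next. C1qa exceeded C1qb in all 8 libraries, by a ratio of 1.06 to 1.89.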

How the data were processed

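Polyadenylated RNA of 8 ileal sections was sequenced on an Illumina HiSeq or an Ion Proton instrument, and the authors used CLC Genomics Workbench 7.5 for mapping against GRCm38 (release 76), per the series' design text. The deposited values carry no unit name and were taken as RPKM made by the authors. The sorted values are identical in the 4 libraries of couples 1 and 2. Values were analysed as log2(value + 1), and limma 3.58.1 (trend, R 4.3.3) was run on genes at 1 or above in 3 or more libraries, with Benjamini-Hochberg adjustment over all tested genes and a two-sided threshold of 0.05. The fold understates the change of low genes. The genotype fit used the 6 untreated libraries without the couple; the block was an alternative. Littermates share a couple number per the labels and their deviations from the group means were correlated (r over genes of 0.62, 0.64 and 0.51). Fits with the antibiotic couple left out 423 genes with faulty values in its WT column (376 of them shared values); no member was among them. Coordinates and transcripts come from GENCODE M21. The fits were tested on simulated data. The named genes were the members, Alb, Cftr, other complement genes that passed either fit, the 2 of highest mean value in each list (3 for hepatocytes) and the 5 nearest to C3, Cfb and C1qa by their within-couple differences. Members and lists were chosen with earlier results of these data known.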

Additional observations from a re-analysis of the deposited data

Results flagged for a closer look

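In 2 of the genes named by the rule given above, the untreated couples all moved one way and the antibiotic couple the other. Cr1l was higher in KO in the 3 untreated couples and differed by -0.03 (log2) in the antibiotic couple, with 23.6 in WT and 23.1 in KO (interaction -0.27, SE 0.14, limma adjusted p = 0.402). Mertk was lower in KO in the 3 untreated couples and differed by 0.11 in the antibiotic couple, with 42.6 in WT and 46.1 in KO (interaction 0.97, SE 0.17, limma adjusted p = 0.138). Neither interaction passed the threshold. Fbln1 and Tat, named after their values were seen, had the same pattern, with log2 differences of 0.05 and -0.26 in the antibiotic couple. Over all tested genes 28.1% were higher and 32.5% lower in KO in all 3 untreated couples. The share of genes that turned in the antibiotic couple was not computed.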

How the results depend on the processing

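The number of members called between untreated KO and WT was 0, and 2 with the couple as a block (replicate block); leaving out libraries or couples gave 0 to 1. That 1 call was C3, higher (0.74, limma adjusted p = 0.049) in the blocked fit without couple 2. The call count over other complement genes went from 0 to 1 with the block. Over all genes the count was 253, and 2145 with the block, 11 without the filter on low values, 35 with Alb as a covariate, 134 with B cell and follicle markers as a covariate (added after seeing the data), 62 to 141 without 1 library, 0 without any 1 couple, and 464, 421 and 523 with the block and without couple 1, 2 or 3. The change of C3 reversed to -0.79 with Alb and -0.065 with follicle markers as a covariate and was -0.39 to 0.74 over left-out libraries and couples (-0.16 and -0.22 without couples 1 and 3, with or without the block); C4b reversed to -0.12 with Alb and was -0.037 to 0.59 (-0.025 without couple 1), and Serping1 was -0.39 to 0.078 (0.078 and 0.077 without couples 2 and 3). The interaction of C1qb was -0.46 to 0.038 without 1 untreated couple. The cause was not tested. Untreated Alb varied almost only among KO libraries, so the fits with Alb as a covariate do not separate liver RNA from genotype. C2, Cfb, Cd55, C1qa, C1qb and Mbl2 kept their direction in all 20 alternatives of the untreated comparison. The median log2 level difference with antibiotics was -0.32 in WT and -0.36 in KO, and -0.14 and -0.35 after division by the library median. Read depth is unknown and limits what can be said of Cfi and other genes below 1. Genes above 0 numbered 20896 in each library of couples 1 and 2. Couple 3 had 11912 (WT) and 11931 (KO), and the antibiotic couple 13672 (WT) and 13749 (KO). Whether a 0 in those 2 couples means absence is unknown.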

Other observations

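Genes of the terminal complement complex were low throughout. C6 was 0.971, 1.15 and 1.24 in WT of couples 1, 2 and 3 and 0.875, 0.869 and 0.321 in KO, lower in KO in each couple, and 0.751 and 0.515 with antibiotics. C7 was 0.411 to 1.27 in couples 1 and 2, was listed at 0 in couple 3 and was 0.669 and 0.409 with antibiotics. None of the 7 terminal genes in the table passed the filter, so none was tested. C9, made mainly by hepatocytes and named after its values were seen, was 0.317 in KO of couple 1, at most 0.0487 in the other libraries of couples 1 and 2 and listed at 0 in the remaining 4.

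Cd93, from the list of receptors, was 21.6 in WT of the antibiotic couple and 0.82 to 3.55 in the other 7 libraries. The high value is among the 376 values of that column that several genes share. None of 7 neutrophil markers passed the filter. S100a8 was 7.86 and S100a9 6.43 in KO of couple 1, and both were at most 0.626 in the other 7 libraries. All 7 markers were listed at 0 in both libraries of couple 3, where fewer genes had a value above 0.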
